A study of Mus musculus with 2 samples.

Results

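The subject of this report is transcription far from genes: fixed 1-kb bins of the mouse autosomes (build mm9) that lay more than 10 kb from any GENCODE vM1 gene and from any entry of the authors' catalog of imprinted genes, and that held at least 100 reads and 20 distinct read positions in each of 2 libraries. Of 2472334 whole autosomal bins, 1133100 lay that far from genes and 1355 of them, or 0.120%, met the minimum. Merging bins under 5 kb apart gave 827 regions. The bins were chosen by their read counts and read positions in these libraries, so their levels are given as a description, with no test.

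Both libraries are RNA-Seq of whole brain on embryonic day E17.5 from F1 embryos of reciprocal crosses between C57BL/6J and CastEi/J (CAST/EiJ in the paper) mice. The BxC embryo had the C57BL/6J mother and the CxB embryo the CastEi/J mother. Polyadenylated RNA was selected with Dynabeads after Trizol extraction, and single reads of 36 bases were sequenced on an Illumina instrument. With 1 library per cross no spread between replicates could be measured and no test of the crosses was made. Intervals of a single region's share or ratio cover counting error only, with PCR duplicates not told apart from separate molecules, and those of medians cover the spread over regions, not over embryos.

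Most of the mammalian genome between genes is transcribed weakly or not at all. Known sources of RNA there are long noncoding RNAs, first exons and promoters that lie far upstream of the annotated start of a gene, transcripts that run on past a gene's end, and small noncoding RNAs. A further source is sequence that was copied into the genome: a processed pseudogene is a copy of a spliced messenger RNA, without introns, and fragments of ribosomal RNA genes are scattered in the same way. Brain genes of axon guidance, adhesion and splicing are often very long, with alternative promoters spread over large distances.

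Totals were 128944754 reads in BxC and 109719746 in CxB, so that 1 RPM (reads scaled by the library total and given per 1000000) stood for 129 and 110 reads, and a count of 0 allowed at most 0.0233 and 0.0273 RPM. Both totals are above the average yield per library that the methods state, and the reading of the counts as numbers of reads was inferred from their values, so every read count and RPM below rests on that reading. Markers of neurons such as Tubb3 (1860 and 1612 RPM in BxC and CxB) and of progenitors such as Sox2 (173 and 176 RPM) were abundant in both, whereas markers of other tissues were at 0.0388 and 0.100 RPM (Sftpc), 0.109 and 0.255 (Ins2), 0 and 0.428 (Alb) and 4.76 and 4.05 (Myh6). Haemoglobin Hbb-b1, of blood, stood at 162 and 132 RPM, and the endothelial marker Kdr at 44.7 and 41.8 RPM. Xist, the RNA of the inactive X chromosome, had 144838 reads in BxC and 42 in CxB, so cross and sex cannot be told apart here. The methods describe strand-specific libraries, but over 10469 protein-coding genes with at least 1000 reads a median of only 43.5% of BxC reads and 42.9% of CxB reads lay on the strand of the gene. Strand shares below are therefore given as measured and are not read as a direction of transcription.

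The sequences of a few regions show what kinds of DNA drew the reads. The deepest region, chr6:3150001-3152000, held a stretch closely related to sequence on chromosome 17 that ends at the annotated end of the gene AY036118. The windows chr6:3151457-3151556 and chr17:39984313-39984412, both on the plus strand, differed at 6 of 100 bases, shown in capitals.
chromosome 6 window: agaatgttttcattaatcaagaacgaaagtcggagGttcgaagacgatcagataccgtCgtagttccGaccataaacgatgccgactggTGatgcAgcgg
chromosome 17 stretch: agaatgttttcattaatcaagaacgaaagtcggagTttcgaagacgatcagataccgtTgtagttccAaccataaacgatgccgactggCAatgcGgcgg

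A second deep region, chr12:11888001-11890000, resembled the messenger RNA of Tubb2b, a beta tubulin of developing neurons. The window chr12:11888759-11888858 on the plus strand and the complement of bases 731 to 830 of the GENCODE vM1 transcript differed at 8 of 100 bases, in capitals. They are shown because this copy had more reads than any other region that matched a transcript.
chromosome 12 window: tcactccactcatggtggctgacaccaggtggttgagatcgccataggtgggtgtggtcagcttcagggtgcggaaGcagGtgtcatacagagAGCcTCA
Tubb2b transcript: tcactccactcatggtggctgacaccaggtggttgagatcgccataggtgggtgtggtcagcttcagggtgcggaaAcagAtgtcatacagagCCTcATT

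The region chr9:110183001-110184000 held 19 bases identical to a mature microRNA, and its deepest stretch is shown with that RNA. The region was not compared with large-subunit ribosomal RNA, so whether it is a microRNA locus was not tested. The window chr9:110183773-110183875 on the plus strand carries the 19 bases of miR-6236 at chr9:110183857-110183875, in capitals, and the mature miR-6236 of RefSeq (GRCm38.p6) has its seed, bases 2 to 8, in capitals.
chromosome 9 window: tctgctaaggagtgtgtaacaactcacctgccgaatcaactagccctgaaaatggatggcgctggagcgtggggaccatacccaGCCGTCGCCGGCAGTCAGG
mmu-miR-6236: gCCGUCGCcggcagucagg

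Other deep regions matched no annotated transcript and were not compared with large-subunit ribosomal RNA, so what sequence they derive from was not tested. Shown are chr1:104524747-104524846 and chr3:61963201-61963300, on the plus strand, with the 36 bases of the position that held most BxC reads in capitals, since the reads of these regions piled up on single positions.
chromosome 1 window: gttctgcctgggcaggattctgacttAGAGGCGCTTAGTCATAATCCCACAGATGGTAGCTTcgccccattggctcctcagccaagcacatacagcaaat
chromosome 3 window: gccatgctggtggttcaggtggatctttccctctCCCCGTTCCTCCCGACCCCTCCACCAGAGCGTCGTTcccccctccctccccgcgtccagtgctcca

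A different picture came from regions upstream of long genes, where spliced reads joined small exons. On chromosome 16 an exon of 48 bases at chr16:6487912-6487959 was joined to a more distant exon and to Rbfox1, a neuronal regulator of splicing. The sequences on the plus strand at the ends of both introns are given, with the exon side in capitals and the intron in lower case, where each intron starts with GT and ends with AG. They lie at chr16:6349310-6349339, chr16:6487897-6487926, chr16:6487945-6487974 and chr16:6809285-6809314.
upstream junction of the Rbfox1 chain donor: AATTACACAGGGTAGgtaagttcagctccg
upstream junction of the Rbfox1 chain acceptor: tttctcctcctccagGATATCAAAGGCGAC
downstream junction of the Rbfox1 chain donor: ACAGAGGACAGAAAGgtaagtcgatatatt
downstream junction of the Rbfox1 chain acceptor: ttctcttttctgcagGTTTTGAGGCAACAG

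The 827 regions were mostly small. Of these, 623 consisted of 1 bin, 108 of 2 bins and 96 of 3 or more, and 10 regions had at least 10 bins. The median span was 1.00 kb, and it was 4 kb (95% interval 3 to 4) for the 204 regions of 2 or more bins. The longest region spanned 31 kb. The share of bins that met the minimum was larger closer to genes, from 0.120% far from genes to 1.29% of 309818 bins within 10 kb of a gene or catalog entry and 10.7% of 1029416 bins that overlapped one. All member bins together held 1666493 BxC reads and 1419500 CxB reads, which was 1.29% of each library.

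Reads were very unevenly divided among the regions. The 10 deepest regions held 59.3% of the member reads in BxC and 58.2% in CxB, while the median region held 293 and 249 reads, or 2.27 RPM in each library. Among the bins nearest to the read minimum, chr1:42648001-42649000 was inside with 100 BxC and 131 CxB reads and chr2:7046001-7047000 was inside with 100 and 125. On the outside, chr3:68603001-68604000 had 99 and 103 reads and chr3:89293001-89294000 had 99 and 120. In the weaker library 164 member bins had fewer than 110 reads, and 222 bins that met the position minimum had 90 to 99.

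The regions fell into 4 kinds by sequence. A region was called ribosomal where most of its reads lay in a match to the chromosome 17 stretch, transcript-like where they lay in a match of at least 200 bases and 90% identity to the transcript of 1 GENCODE gene, and repeated where most reads had a central 24-base word with more than 1 copy in mm9 or lay in low-complexity sequence. By this order 3 regions were ribosomal, 165 transcript-like and 197 repeated, and 462 regions, with 952 of the 1355 bins, had no such match. The stretch on chromosome 17 was AY036118 with the bins just left of it that had very high BxC counts. Depth in these data thus set its extent. It was the only sequence used here as ribosomal, and the large-subunit RNA was not compared. A region without a match, the deepest ones included, was therefore not shown to be free of ribosomal sequence. The regions without a match were wider than the repeated and transcript-like ones, with 169 of 462 (36.6%) made of 2 or more bins against 16 of 197 (8.12%) repeated and 17 of 165 (10.3%) transcript-like regions. Of the 3 ribosomal regions, 2 had 2 bins.

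The kinds differed in how tightly the reads were packed. In the median region without a match, 30.3% of unspliced reads lay in the densest 100 bases. This share was 97.5% in repeated regions and 96.1% in transcript-like regions. Thus the latter were usually a single narrow pile of reads, whereas the former were spread over the bin. The plot of depth against concentration shows that several of the deepest regions without a match were exceptions, with nearly all reads in 100 bases, while others, such as chr3:5860001-5861000 with 60.4%, were not.

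**Figure D1:**
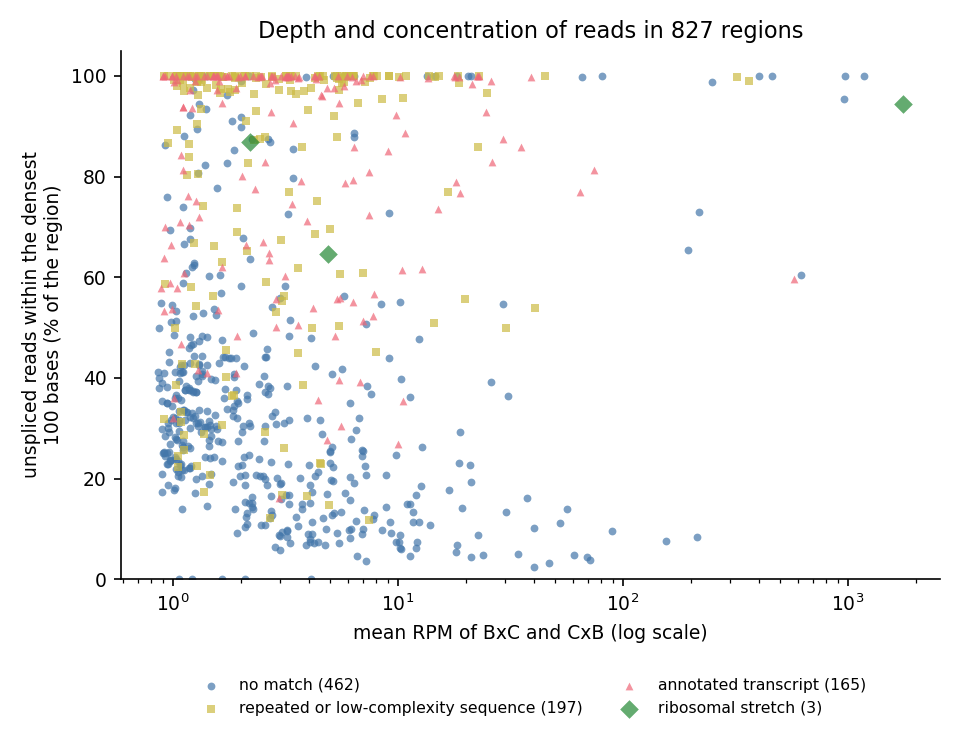
Each point is 1 of the 827 regions, with the mean RPM of BxC and CxB on a log axis and the share of its unspliced reads that fell in its densest 100 bases (a region with only spliced reads is at 0), and with colour and shape giving the kind of sequence. Repeated and transcript-like regions crowd at the top, with medians of 97.5% and 96.1%, and regions without a match lie mostly lower, with a median of 30.3%.

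A further measure separated the deep narrow regions. The alignments often list several lines with the same start, end and strand, and the number of lines per position was near 1 in most bins, with a median of 1.03 over all autosomal bins that met the minimum in BxC. At least 2 lines per position in both libraries were seen in 117 of the 827 regions and in 121 member bins (8.93%), set beside 1.68% of bins within 10 kb of a gene and 1.10% of all 115158 autosomal bins that met the minimum. Of these 117, 58 were repeated, 38 transcript-like, 1 ribosomal and 20 without a match. The 20 without a match held 43.8% of all member reads in BxC and 41.2% in CxB, and the other 442 held 19.5% and 19.8%. Where bins held 10000 or more reads in both libraries, the median was 45.4 BxC lines per position in 15 member bins, 39.1 in 13 bins within 10 kb of a gene and 2.27 in 602 bins that overlapped genes. What sets the number of lines per position was not tested.

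The highest level belonged to the ribosomal region of chromosome 6, printed above. It had 212160 BxC and 202745 CxB reads, or 1645 and 1848 RPM, of which 94.4% of the unspliced reads fell in 100 bases. The reads leaned to the minus strand, 87.0% in BxC and 88.3% in CxB. Its nearest annotated gene, Samd9l, lay 170 kb away. The other ribosomal regions were shallow, and one of them, chr11:103934001-103935000, chosen after its values were seen, had 272 and 249 reads.

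Several of the next levels were those of regions of 1 bin without a match. The region chr1:104524001-104525000, between 2 SNORA17 copies, had 126323 BxC and 102328 CxB reads, with 30.1% and 26.8% of them at a single position. At chr3:5860001-5861000, 284 kb from Pxmp3, the counts were 74296 and 71802, and no position held more than 3.19% of BxC or 3.91% of CxB reads. The chromosome 9 region lay 17.9 kb from Cspg5, a chondroitin sulphate proteoglycan of the nervous system. It had 54488 and 42289 reads, 96.1% and 95.3% on the minus strand. Only 1008 BxC and 777 CxB reads overlapped the 19 bases of miR-6236, which read on the plus strand, so nearly all of the region's reads lay outside the mature sequence. RefSeq lists Mir6236 between the same neighbouring genes.

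Also among the 10 deepest were 2 regions of the repeated kind. The region chr10:11211001-11212000 lies 31.6 kb from Epm2a, which encodes the glycogen phosphatase laforin, and held 44467 BxC and 41617 CxB reads. At chr3:61963001-61964000, 178 kb from Arhgef26, there were 37721 and 38590 reads, and 99.6% and 99.5% of them lay on the minus strand, the nearest to complete strandedness among the 10 deepest regions. Few of their reads had a repeated 24-base word, 2.51% and 0.0904%, so both were put in this kind for low-complexity sequence, with a GC content of 68.5% and 69.6%.

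Further deep regions lay on chromosomes 8 and 18, and their sequences are not shown. In chr18:54858001-54859000, 189 kb from Zfp608, there were 150554 BxC and 131360 CxB reads, 61.2% and 55.0% of them at 1 position. The region chr8:15519001-15520000, 373 kb from Csmd1, had 124193 and 106705 reads, and chr18:68851001-68852000, 262 kb from the melanocortin receptor gene Mc2r, had 85447 and 27867. The densest windows of this pair were 92.0% identical over 100 bases, so their reads came from closely related sequences. Yet the first of them had nearly the same RPM in both libraries, 963 and 973, and the second did not, 663 and 254.

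**Figure D2:**
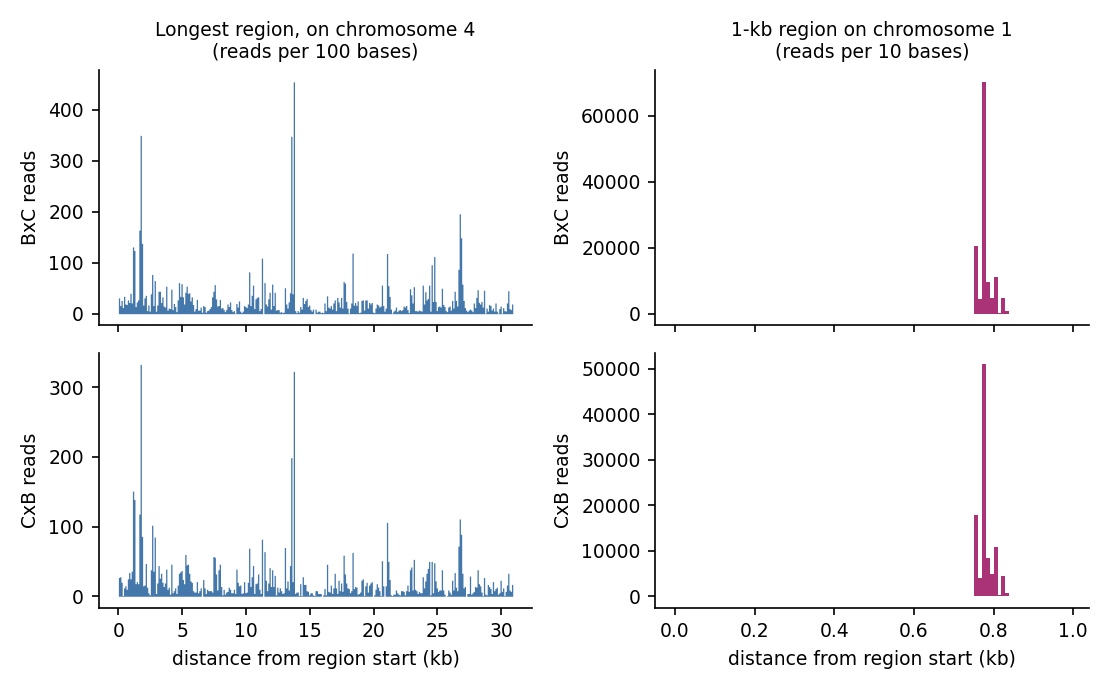
Reads by distance from the region start in kb, BxC above and CxB below, for the longest region (left, chromosome 4, per 100 bases) and for a narrow deep region (right, chromosome 1, per 10 bases). The long region has reads over its whole 31 kb, and in the narrow one 95.4% of unspliced reads lie in 100 bases.

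Regions that matched transcripts matched best to a protein-coding gene in 142 of 165 cases. Only 54 of the 165 matched a single gene and 43 matched over 10 genes, so for many of them the gene named is 1 of several carriers of the same sequence. For 66 of them the match ran across an exon junction of the gene without its intron, 63 of these from protein-coding genes, as in a processed pseudogene. The 63 matched 62 different genes, 12 of the regions matched ribosomal protein genes, and the matches had a median identity of 96.3% over a median of 860 bases. Of these 63 regions, 61 had fewer BxC reads than the whole span of the gene they matched, with medians of 438 and 10849 reads, a comparison of totals over unequal lengths that says nothing of depth per base. Reads of a copy and its parent can be told apart only at the bases that differ.

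The Tubb2b-like region led this kind with 77958 BxC and 60384 CxB reads, against 263428 and 202945 over Tubb2b itself. Only 9.63% and 9.98% of its reads lay on the strand of the matching messenger RNA. RefSeq lists the pseudogene Tubb2a-ps2 between the same neighbouring genes. Spliced reads, 783 in BxC and 725 in CxB, crossed a gap of 133 bases within the region that starts with GT and ends with AG. Among copies that crossed exon junctions, chr12:111132001-111133000 matched Rpl10, a protein of the large ribosomal subunit, at 99.8% identity. It had 5100 BxC and 4188 CxB reads, and the annotated Rpl10 had 3288 and 2596. The region matched 11 genes, and 99.9% of its reads had a repeated central word. Only 5.08% and 5.87% of its reads lay on the strand of the matching messenger RNA. How reads divide between this copy and its parent was not tested, so these totals do not rank them. A copy of Gpx4, a glutathione peroxidase, at chr10:45595001-45596000 crossed 6 exon junctions and had 2277 and 2041 reads. One of the other matches was to the mitochondrial genome, at chr12:98299001-98300000, with 99.7% identity and 1384 and 981 reads. The copies of Rpl10 and Gpx4 and the mitochondrial match were chosen for mention after their values were seen.

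The longest regions had no sequence match and low, wide coverage. The longest, chr4:124201001-124232000, spanned 31 kb with 27 member bins and lay 14.4 kb from 4933407E24Rik and 37.8 kb from 1700057H15Rik, both noncoding genes. It had 7951 BxC and 6472 CxB reads, or 61.7 and 59.0 RPM, at 3281 and 2713 positions, and no position held more than 2.34% of reads. The second, chr16:6264001-6294000, 515 kb from Rbfox1, had 5487 and 5598 reads over 30 kb. On chromosome 3, chr3:118182001-118210000 and chr3:118216001-118238000 lay 55.0 and 27 kb from Dpyd, which encodes the enzyme that starts pyrimidine breakdown. They held 2923 and 2753 reads and 5631 and 3982 reads. The fifth, chr17:46989001-47012000, lay 14.2 kb from A330017A19Rik, had 7500 and 6040 reads, and falls in an interval where RefSeq places the gene Bicral. In each of these 5 regions the counts of both libraries were close, with log2 ratios of CxB over BxC from -0.27 to 0.26.

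Some of the deepest wide regions are given next, chosen after their values were seen. The region chr12:106725001-106732000, between 2810011L19Rik, at 103 kb, and the bradykinin receptor gene Bdkrb2, at 69.4 kb, had 27767 BxC and 23256 CxB reads over 7 bins. A spliced junction with 36 and 30 reads joined it to chr12:106692001-106693000, which had 4086 and 2957 reads. Next, chr6:135663001-135669000, 10.8 kb from Grin2b, an NMDA receptor subunit, had 18660 and 18081 reads over 6 bins. At chr9:27153001-27165000, 10.7 kb from the adhesion gene Igsf9b, there were 8730 and 8211 reads, and at chr14:64450001-64469000, 10.8 kb from Xkr6, there were 8858 and 7588 reads. A region 10.2 kb from the neurotrophin receptor gene Ntrk3, chr7:85320001-85327000, had 4462 and 4460 reads.

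Strand use also differed between kinds. The median region had 67.9% of BxC reads (95% interval 65.8 to 69.4) and 67.5% of CxB reads (65.7 to 69.2) on its stronger strand. The median was 61.1% and 61.9% for regions without a match, 78.9% and 75.9% for repeated and 78.3% and 78.4% for transcript-like regions. In bins that overlapped genes it was 62.4% and 63.0%, so the regions without a match were about as evenly split as genes in these libraries. The stronger strand was the same in both libraries in 758 of 827 regions (91.7%) and 1252 of 1355 member bins (92.4%), beside 92.6% of all autosomal bins that met the minimum. At least 90% on 1 strand in both libraries was seen in 77 regions, of which 17 had no match, and in 98 member bins (7.23%), beside 2.53% of all such bins.

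Spliced reads touched 204 regions (24.7%) in both libraries, 130 of them with at least 10 in each, and 577 regions had none in either. Counted by bins, 150 of the 1355 members (11.1%) had a spliced read in both, beside 5.65% of bins within 10 kb of a gene and 52.2% of all autosomal bins that met the minimum. By the methods, splices were sought in junctions of the gene models used for alignment. A lack of spliced reads is therefore not read here as an unspliced RNA. By the same limit, a junction seen here joins exons that those models already held, although the regions lie far from GENCODE vM1 genes. In all, 314 different junctions were seen in both libraries. Of these, 136 had GT and AG at the ends of an intron of at least 50 bases, with 6917 BxC and 5562 CxB reads and a median intron of 17161 bases. The other 178, with 18278 and 15284 reads and a median gap of 162 bases, had other ends or a gap under 50 bases, the latter in 53 of them. Below, junctions with GT and AG ends are the 136.

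The 5 regions with the most spliced reads owed them to junctions of the second sort. In chr17:83210001-83212000, 403 kb from Pkdcc, 4383 BxC and 2912 CxB spliced reads crossed gaps in a repeated stretch, where the deepest junction had 1346 and 873 reads over 437 bases. Its ends are CT and CT. At chr12:88251001-88252000 near Gm17422 there were 1858 and 1531 spliced reads, mostly over a gap of 53 bases. The regions chr5:23564001-23565000 (878 and 865), chr6:140878001-140879000 (849 and 816) and chr8:7330001-7331000 (799 and 724) followed. Of these 5, only chr6:140878001-140879000 had any read on a junction with GT and AG ends, 6 in both libraries together. The flanks of the chromosome 17 gap, at chr17:83210493-83210522 and chr17:83210930-83210959 on the plus strand, are shown with the aligned blocks in capitals because both are made of the same short units.
chromosome 17 gap left: TGCCTCTCTGCCTCTctgcctcgctctctc
chromosome 17 gap right: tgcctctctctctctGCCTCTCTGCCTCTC

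Junctions with GT and AG ends touched 107 regions, 78 of them without a sequence match. Of the 136 junctions, 13 lay within 1 region, 37 led to within 1 kb of an annotated gene and 86 to other sequence, and 11 joined 2 regions. The 37 led from 31 regions to 28 genes. Examples, chosen after their values were seen, follow. The potassium channel gene Kcnma1 was joined to chr14:24822001-24825000 across 200446 bases by 129 BxC and 108 CxB reads, and the sodium channel gene Scn8a to chr15:100701001-100702000 by 34 and 46. Junctions to Rnf180, a ubiquitin ligase gene, had 163 and 143 reads, and those to Mical3, whose product acts on actin, had 119 and 83 and came from chr6:121077001-121082000. Junctions to the chromatin genes Dpf3 (56 and 38 reads) and Hdac4 (38 and 31), to Arhgap5 (68 and 30) and to Myo16 (45 and 37) also occurred in both libraries.

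St3gal1, a sialyltransferase gene on the minus strand, had the most reads on a junction to a gene. Its regions were chosen after their values were seen. It was joined to an exon of 55 bases at chr15:66960115-66960169, in a region 14.1 kb away, by 705 BxC and 501 CxB reads. That exon was joined in turn to the region chr15:66984001-66985000 by 123 and 98 reads, and this one to chr15:67008001-67009000 by 64 and 59. The chain thus ran over 3 regions of 1 bin each, which held 167, 833 and 702 reads in BxC and 142, 692 and 498 in CxB. A read was counted in the bin of its leftmost base, so the reads that joined the first region to St3gal1 are not in these counts. The ends of the first intron, at chr15:66960100-66960129 and chr15:66945905-66945934, are given on the minus strand with the exon side in capitals.
St3gal1 junction donor: GATGTGGCACTTCTGgtaagcactccgttc
St3gal1 junction acceptor: ctcctttgtacacagATGTTCAGCAAACCC

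Upstream of Rbfox1 the regions were the most numerous of any interval between 2 genes. Over 925 kb before the annotated start there were 36 regions with 95 member bins, 23643 BxC and 21239 CxB reads, and 30 of the regions had no sequence match. The regions and junctions named here were chosen after their values were seen. Reads were found nearly everywhere in between, in 921 and 918 of the 925 bins. The exon of 48 bases printed above was joined to chr16:6348001-6355000 by 216 and 135 reads across 138587 bases, and forward by 213 and 177 reads across 321340 bases to a point 15 bases before the annotated start of Rbfox1. A region at the far end, chr16:5884001-5890000, was joined by 58 and 29 reads across 287740 bases to an exon that was itself joined to the 48-base exon by 49 and 42. All bins of the 925 kb together held 55353 BxC and 52531 CxB reads, and Rbfox1 itself had 77362 and 66335 over its annotated span. These are totals over unequal lengths and say nothing of depth per base.

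**Figure D3:**
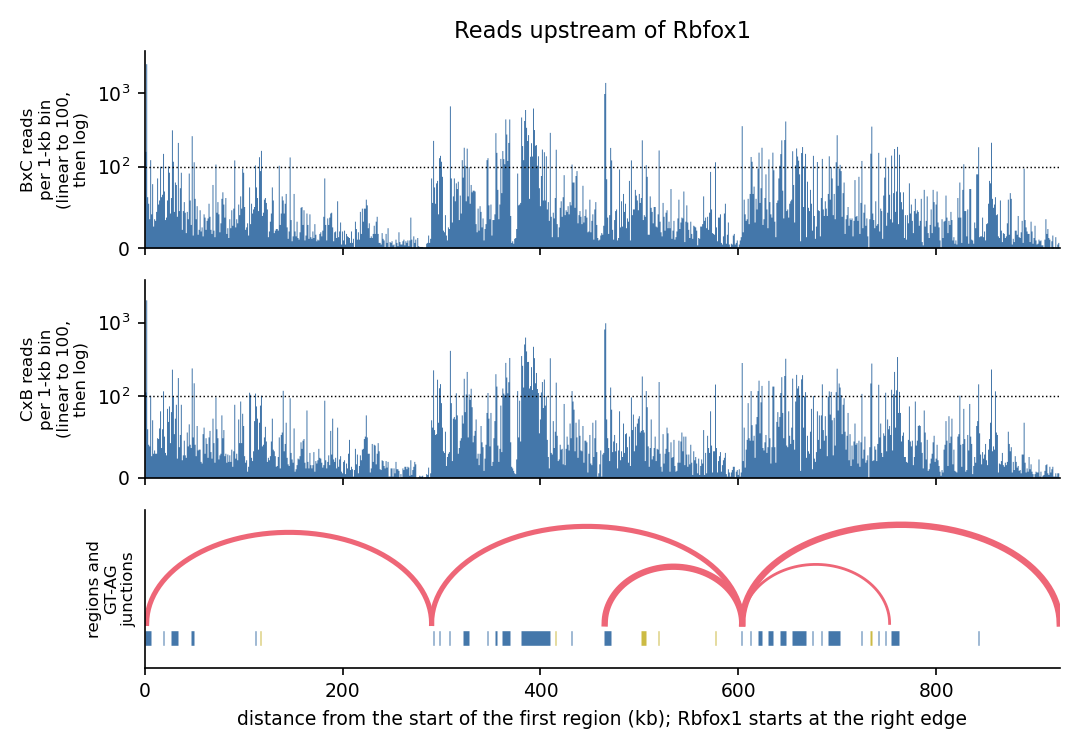
Reads per 1-kb bin in BxC and CxB over the 925 kb before the annotated start of Rbfox1 (axis linear to 100 reads, then log, with the minimum of 100 dotted), and below them the 36 regions as bars (blue, no match, yellow, repeated or transcript-like) and the 5 junctions with GT and AG ends that lie within these 925 kb as arcs, thicker with more reads (a further one, with 11 and 5 reads, led from the exon of 48 bases into the gene and is not drawn). The profiles of both libraries have peaks at the same places, and 4 of the 5 arcs meet at the exon of 48 bases.

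Regions also lay before other long adhesion and guidance genes. Robo1 encodes a receptor for the Slit guidance proteins, and Lsamp encodes an adhesion protein of the limbic system. Lsamp was joined, in regions chosen after their values were seen, to chr16:39984001-39985000, a region with 5363 BxC and 4359 CxB reads, across 1548725 bases by 45 and 27 reads. It was joined to chr16:40786001-40787000 across 747392 bases by 38 and 14, and those 2 regions to each other by 61 and 42. In the interval before Robo1, 17 regions held 6002 and 5752 reads, while Robo1 itself had 46050 and 38369, again totals over unequal lengths. No junction with GT and AG ends led from them to Robo1.

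A later annotation was set beside these regions. GENCODE vM1 gives Rbfox1 a span of 603 kb, and RefSeq (GRCm38.p6) gives it 1528 kb. A region was counted where the RefSeq span of a coding neighbour exceeded its GENCODE span by at least the distance to the region, which says nothing of the end at which the gene is longer. Neighbours were coding by GENCODE vM1 and were found in RefSeq by identifier, symbol or synonym. Whether the RefSeq gene is coding was not checked. By bins, 487 of 1355 members (35.9%) were counted, beside 4.13% of all bins over 10 kb from a gene. By regions it was 259 of 818 with a neighbour found in RefSeq, 225 of them without a sequence match, next to 98 genes. After Rbfox1 came Robo1 with 31 bins (383 kb in GENCODE vM1, 1020 kb in RefSeq), Lsamp with 28 (649 and 2197 kb), Robo2 with 25 (520 and 1555 kb), Xkr6 and Nav3 with 18 each, C230091D08Rik (0.109 and 1177 kb) and Nav2 with 15 each, Igsf9b and 2610203C20Rik with 12 each, and Gm5567 and the growth factor gene Nrg1 (191 and 1084 kb) with 11 each. Among genes with fewer, the splicing factor gene Celf2 had 9 and Grin2b had 6.

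Apart from 4 regions beyond the last annotated gene of a chromosome arm, the regions fell into 562 intervals between neighbouring genes, of which 462 held 1 region, 40 held at least 3 and 21 held at least 10 member bins. These 21 intervals held 464 of the 1355 bins. The Rbfox1 interval had 95 bins, and the one before Dpyd, with 40 bins in 4 regions, came next. Chromosome 16, which carries Rbfox1, Robo1, Robo2 and Lsamp, had 3.90 member bins per 1000 bins far from genes, the most of any autosome, and chromosome 19 had 0.416, the fewest.

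The nearest gene lay at a median of 45.4 kb (95% interval 39.5 to 51.9) from a region and at 75.3 kb from all bins over 10 kb from a gene. No region was over 1 Mb from a gene, and 214 were within 20 kb. The nearest gene was protein-coding for 519 regions, an snRNA gene for 60, a lincRNA gene for 53 and an snoRNA gene for 52.

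Genes of 2 lists were looked up among the nearest genes. A list of 163 transcription factors of the developing brain, 154 of them annotated, gave 10 regions (1.21%) with 16 bins (1.18% of member bins) and stood beside 1.26% of all bins over 10 kb from a gene, so its share was near the background. Those described here lay near Zfhx3 (3 regions, 1937 BxC and 1651 CxB reads) and by 1 region each near Pou3f3, Gli2, Lhx5, Sox11, Sall1 and Atoh1. A list of 132 adhesion and guidance genes, 120 of them annotated, gave 32 regions (3.87%) with 46 bins (3.39% of member bins), beside 2.47% of all bins over 10 kb from a gene. Of these regions, 13 lay near Robo1 and held 24 of the 46 bins, so the share by bins rests largely on 1 gene. Another 6 lay near Slitrk1, a regulator of neurite outgrowth, with 1361 and 1193 reads, 35.2 to 96.2 kb away. The other 13 regions lay near 12 genes, among them Fat3, Pcdh17, Cntnap2, Unc5d, Nlgn1 and Slit2.

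Levels in the 2 libraries were close. The median log2 ratio of CxB over BxC RPM was 0.04, and 763 of 827 regions lay within 0.5 of 0. By regions, 2 were past 2-fold higher in CxB (0.242%) and 2 past 2-fold lower (0.242%). Counted by bins, 4 members (0.295%) were past 2-fold higher and 5 (0.369%) past 2-fold lower, and over all autosomal bins that met the minimum these shares were 0.0973% and 0.0391%. Both shares were thus larger among the members, though they rest on few bins.

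**Figure D4:**
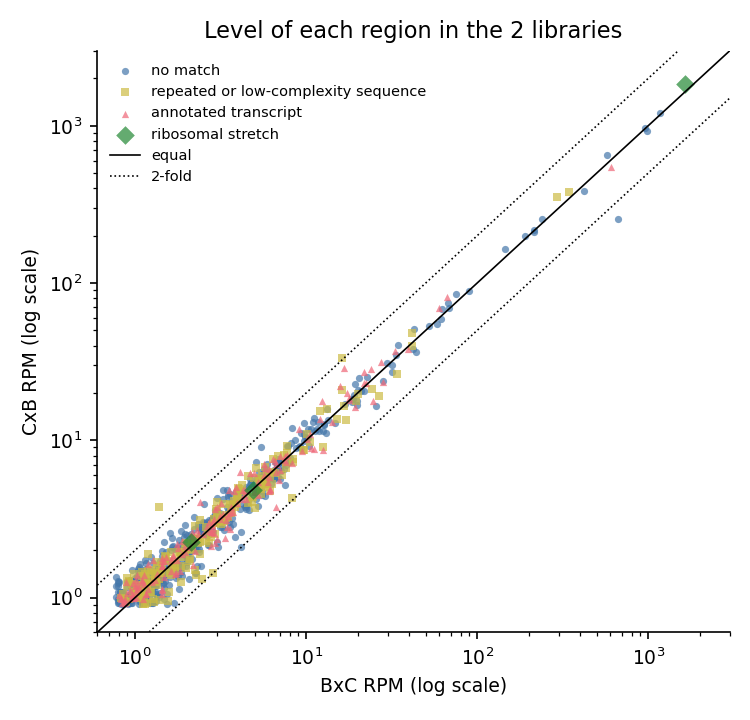
RPM of each of the 827 regions in BxC and CxB on log axes, with the line of equal level and dotted lines at 2-fold, and with colour and shape giving the kind of sequence. The points follow the line of equal level, with 763 of them within a log2 ratio of 0.5, and 4 lie past the dotted lines.

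Higher in CxB were chr15:74916001-74917000, between Ly6c1 and Ly6c2, with 177 BxC and 414 CxB reads (log2 ratio 1.46, 95% interval 1.20 to 1.72), and chr9:4260001-4261000, 10.1 kb from the microRNA gene AC115802.1, with 2101 and 3690 (1.05, 0.97 to 1.12). Both are of the repeated kind. The third highest, chr16:72634001-72635000, 28.4 kb from Robo1, had 100 and 149 reads (0.81, 0.43 to 1.19). Lower in CxB was chr18:68851001-68852000, with the counts given above (-1.38, -1.40 to -1.36). It was followed by chr7:26633001-26634000, near Gm4613, with 539 and 229 reads (95% interval -1.23 to -0.78), and by chr12:19315001-19316000, of the repeated kind, with 367 and 157 (-0.99, -1.27 to -0.72). With 1 library per cross, a difference between the crosses, between the sexes and between single libraries cannot be told apart.

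Several intervals, chosen after their values were seen, lie in the imprinted cluster of the Prader-Willi and Angelman syndromes. Between SNORD116 and Snord64, 3 regions held 4000 BxC and 2452 CxB reads, 31.0 and 22.3 RPM. The largest, chr7:67079001-67086000, had 3320 and 1811 reads (log2 ratio -0.64), while chr7:67101001-67104000 had 452 and 490 (0.35). In the other direction, the region between C230091D08Rik and SNORD115 had 1066 BxC and 1302 CxB reads, 8.27 and 11.9 RPM, and 2 regions between Gm6226 and Ube3a had 1285 and 1424 reads, 9.97 and 13 RPM. Over all 827 regions the log2 ratio was -0.29 at the 10th percentile and 0.35 at the 90th. With 1 library per cross, cross, sex and single library cannot be told apart in these intervals either. The alignments list no bases, and the share of each parental allele was not measured.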

How the data were processed

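RNA-Seq of 1 BxC and 1 CxB brain was analysed from the deposited alignments. By the labels and methods, the authors aligned reads with Novoalign (version not given in the sources used here) to gene models, splice-junction sequences and mm9, and kept uniquely mapped reads; which of their alignments was deposited is not stated. The deposited count on each line was used, without normalization, as the number of identical reads, a meaning inferred from the values. The deposited catalog gives positions only, and 0 columns could not be assigned to a sample.

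A line was assigned to the bin of its leftmost base. Distances were taken to 37310 GENCODE vM1 genes and 128 catalog entries. A ribosomal match had at least 50 bases and 85% identity; matches were found with BLAST+ 2.17.0, and the rest was computed with Python 3.11.15, numpy 2.4.6, pandas 2.3.3 and scipy 1.17.1. Intervals are exact at 95% (Clopper-Pearson for shares, conditional binomial for ratios, order statistics for medians). RefSeq gave names, neighbours and spans only. The regions named are the 10 with the highest RPM, the 5 longest, the 5 with the most spliced reads, the 3 highest and 3 lowest ratios and the bins beside the minimum; others are marked as chosen after their values were seen. The members and lists were chosen with earlier results of these data known. The alternatives changed the minimum, the distance, the merging, the gene set and the counting unit. On simulated data 300 of 300 planted bins were found with 0 others, and over 827 regions 95.5% of ratio intervals held the true value. Bins were planted above the minimum, and counts were drawn with the counting error that the intervals assume. This checks the computation only and not the piled reads of the data. Certain other samples of the study were not analysed here. The results of 1 region are not reported here.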

Additional observations from a re-analysis of the deposited data

Results flagged for a closer look

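The rule took autosomes only, and chromosome X was outside it. With the same distance and minimum, 26 of 82945 bins of chromosome X (0.0313%) passed, which merged into 18 regions with 17991 BxC and 15318 CxB reads. The same minimum chose these bins, so their totals are a description. They were noted because the reads lie in data that no comparison of the report uses.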

How the results depend on the processing

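Of 96 alternative values, 58 stayed close to those reported and 38 moved. The number of bins (1355) was 3420 with a minimum of 50 reads, 596 with 200, 624 beyond 50 kb, 2182 with distance from protein-coding genes only and 398 with lines counted in place of reads. The regions were 1444, 423, 402 and 252 under the minimum of 50, of 200, beyond 50 kb and with lines. The mean over libraries of the share on the stronger strand (67.1%) was 64.1%, 69.4% and 63.6% with 50, 200 and lines. Regions with a spliced read in both (204) were 89 beyond 50 kb, 130 with at least 10 spliced reads and 330 with protein-coding genes only. The distance to the nearest gene (45.4 kb) was 25.8, 73.0 and 136 kb at limits of 5, 20 and 50 kb, which these limits set, and 55.9 kb with protein-coding genes only. The log2 ratio (0.04) was 0.07 with lines. Regions past 2-fold higher (2) were 1, 4 and 1 with lines, 50 and 200, and lower (2) were 1 and 5 with lines and 50. The transcription factor list (10) had 33 with protein-coding genes only, 17, 6 and 3 at 5, 20 and 50 kb, and 20, 5 and 3 with 50, 200 and lines. Among alternatives chosen after seeing the data, leaving out regions with a sequence match gave 462 regions, 61.7% on the stronger strand, 94 spliced, 54.4 kb and 0 past 2-fold higher, and junctions with GT and AG ends gave 107 spliced regions. Where not given, the cause was not tested. Leaving out lines in soft-masked repeats was not run, because the reference carries no soft-masking. No paired analysis was possible because each cross has 1 library. Depth limits the list: a member needs about 1 RPM per bin in the weaker library, so weaker transcription far from genes was not detectable by this rule.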
